A study of Bos taurus with 18 samples.

Results

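Interferon response and nucleic acid sensing genes were followed in fibroblasts of 2 cattle lines, 1 Simmental-like and 1 Holstein-like, at the stages labelled primary, senescent and immortalized. The set was given by name as 39 genes, of which 35 had a row under their own name in the count table and 2 more under an older symbol (IRF9 as ISGF3G and DHX58 as LGP2). OAS1X and BST2 had no row under these names and were not analysed here. The 37 rows, out of 24596 genes, were ordered by role into 6 sensors, 10 signalling genes and 21 effectors.

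Cells recognise foreign or misplaced nucleic acid with sensor proteins that signal through adaptors such as MAVS to interferon regulatory factors, which switch on type I interferon genes. Secreted interferon binds the receptor formed by IFNAR1 and IFNAR2, and a complex that contains STAT2 and IRF9 then induces many effector genes. Fibroblasts are classic producers of and responders to interferon beta, and the same genes are often followed in cell senescence because cytosolic DNA and RNA can trigger the pathway without a virus.

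By the labels, the Simmental-like libraries were the cell line PBF-13 for the primary stage, Sn-BF-13 for the senescent stage and HUN-BF-13 for the immortalized stage. The Holstein-like ones were PBF-15, Sn-BF-15 and HUN-BF-15. Each stage of each line had 3 libraries, called biological replicates without a statement that they came from separate cultures. The p-values therefore cover only the variation among these libraries, and that variation may be technical. No treatment, transgene or genetic change is given for any group, although the senescent Simmental-like columns are named for an X-ray control (MultiXray-Ctrl) that the labels do not explain. The study asked how transcription changes when bovine fibroblasts escape senescence in long culture. The columns of the 3 Simmental-like stages carry different culture names, and no source says if the stages came from 1 animal, so stage and culture cannot be told apart.

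Simmental-like libraries held 18215975 to 23197187 counts. The 9 fibroblast markers looked up, such as COL1A1 and VIM, were present there and took 4.1% to 6.55% of the counts of each library. Primary library 1 stood apart from the other primary libraries: its 100 most abundant genes took 36.8% of the counts, against 31.2% and 31.3%. Senescent libraries 1 and 2 were nearly alike, with a chi-square of 1.36 per gene where pure counting error gives about 1. Senescent library 3 gave 3.49 and 3.96 against them, and immortalized libraries gave 6.57 to 24.4 among each other. Primary libraries were much further apart, with 370 for 1 and 2, 190 for 1 and 3 and 41.8 for 2 and 3. The tests nonetheless use a spread that the 3 stages share. The libraries labelled Holstein-like primary held 1424478 to 1466911 counts and the other Holstein-like ones 10984792 to 14085475, and most of them carried organ transcripts, so they are described singly further on. Levels are CPM, counts scaled to library size, after TMM scaling for the Simmental-like libraries and by column total for the Holstein-like ones. Changes are log2 values ± SE from edgeR's quasi-likelihood test, and a gene is called higher or lower where the Benjamini-Hochberg adjusted p over all 13099 tested genes is below 0.05. CPM is not corrected for gene length, so levels are compared between stages and not between genes.

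The first question was how senescent cells differed from primary ones. In the Simmental-like libraries most double-stranded RNA sensors and a large part of the effectors were higher at the senescent stage, led by OAS1Y, ISG15, IFIH1, IRF1 and MX1. A smaller set that included IRF7, IRF3, IFI35, IFIT3 and IFIT5 was lower. Of the 37 members, 34 passed the filter on low counts, 18 rose, 5 fell and 11 did not pass the threshold. This is 52.9% higher and 14.7% lower among the tested members, while 28.3% of all tested genes were higher and 29.7% lower (58% in either direction). By role, 4 of 5 tested sensors rose and 0 fell, 4 of 10 signalling genes rose and 2 fell, and 10 of 19 tested effectors rose and 3 fell. The stages did not overlap for 18 members that lay higher and 6 that lay lower, and for 66.6% of all genes. The median log2 change of the tested members was 0.83, against 0.01 over all genes. RSAD2 and IFIT2 averaged below the 0.506 CPM that the filter asks for in at least 1 of these stages, so they were tested only through stages where they were high, and without them 17 of 32 rose and 5 fell. ISG15 stayed among these 17 by its primary mean of 0.666 CPM. Its primary libraries 2 and 3 were under the filter level, so it too was tested only through the later stages. Fibroblast markers moved too: 8 of the 9 were lower in senescent than in primary libraries (median log2 change -0.96), with DCN at -1.88 and VIM at -1.36, and FN1 was higher (0.65). Their part in the members' changes was not tested. Without primary library 1, which differed from the other primary libraries, the counts were 19 higher and 6 lower. Over all genes 4466 were then higher and 4524 lower, where all libraries gave 3704 and 3887. In bulk RNA a change in the number of cells that express a gene and a change in RNA per cell cannot be told apart.

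The plot of all members by library shows the main pattern as a warm block in the senescent columns for the sensors other than DHX58 and for IRF1, ISG15, MX1 and the genes from PARP9 to RNF213.

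**Figure D1:**
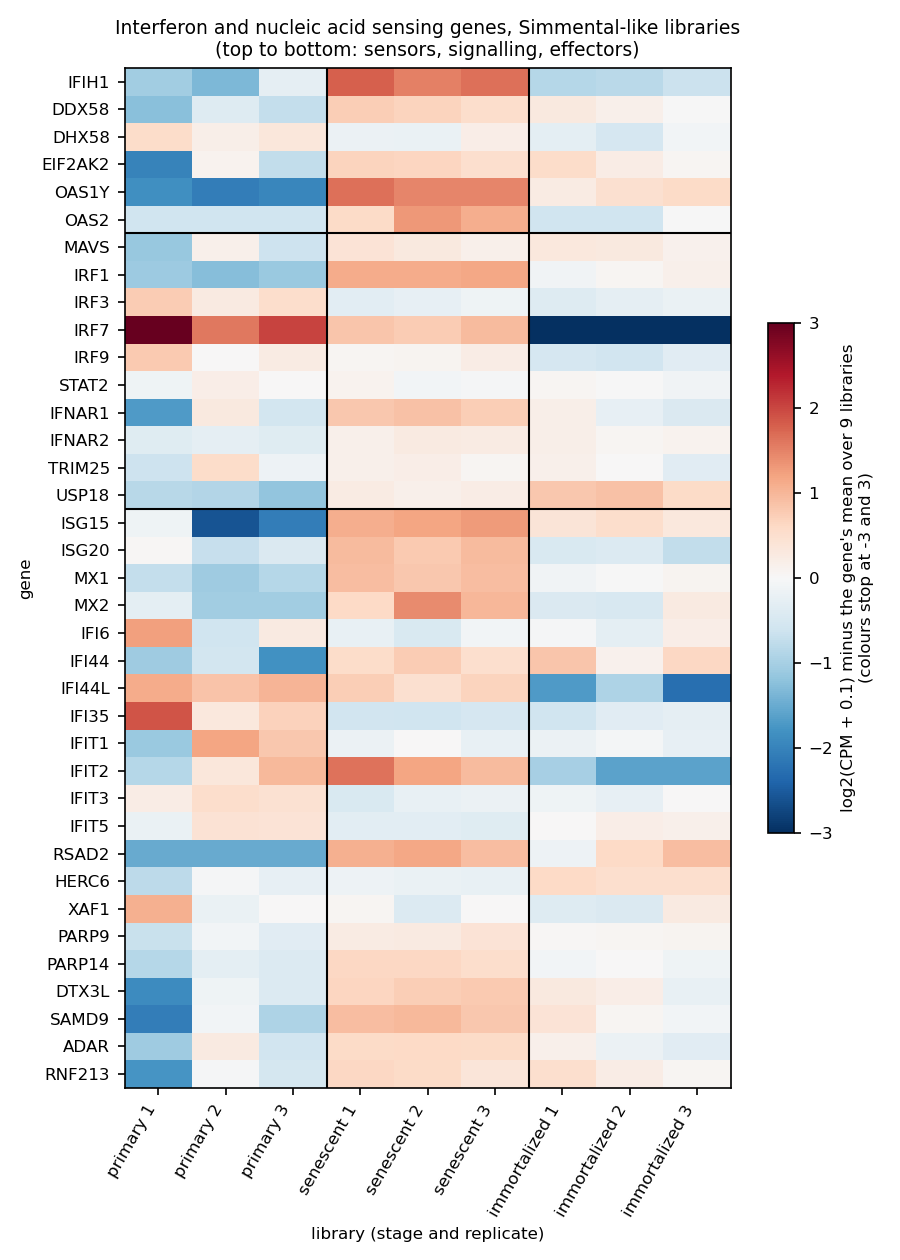
Heat map of the 37 members (rows, by role) in the 9 Simmental-like libraries (columns, by stage), with colour for log2(CPM + 0.1) minus the gene's mean over the 9 libraries. Senescent columns are red for OAS1Y, IFIH1 and IRF1, while IRF7 is red in primary and dark blue in immortalized libraries.

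The sensors changed as follows. OAS1Y, an oligoadenylate synthetase that is activated by double-stranded RNA, stood at 0.954, 0.801 and 0.872 CPM in the primary libraries, 11.7, 10.3 and 10.3 CPM in the senescent ones and 4.36, 5.18 and 5.5 CPM in the immortalized ones. All 3 stages were separate from each other without overlap. OAS1Y rose 12.3-fold in senescent over primary libraries (3.62 ± 0.17, adjusted p = 1.27e-06) and was 2.15-fold lower in immortalized than in senescent libraries (-1.10 ± 0.14, adjusted p = 0.000549). Immortalized libraries still lay above primary ones (2.52 ± 0.17, adjusted p = 6.53e-06). OAS1Y counts were not whole in 8 of the 18 libraries, as happens where salmon shares reads out between similar genes, so its level is uncertain to that extent.

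IFIH1 encodes MDA5, the receptor for long double-stranded RNA. It had 1.5, 1.18 and 2.62 CPM in primary libraries, 11.3, 9.3 and 10.2 CPM in senescent libraries and 1.7, 1.77 and 2.01 CPM in immortalized libraries. The immortalized values lay within the range of the primary ones. The rise at the senescent stage was 5.86-fold (2.55 ± 0.27, adjusted p = 0.000106) and the fall from there to the immortalized stage 5.59-fold (-2.48 ± 0.26, adjusted p = 0.000214). Immortalized and primary libraries did not differ past the threshold (0.07 ± 0.28, adjusted p = 0.858).

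DDX58, which encodes RIG-I, a receptor for short viral RNA, had 5.18, 9.52 and 7.54 CPM in primary, 21, 19.8 and 18.2 CPM in senescent and 15.4, 13.8 and 12.4 CPM in immortalized libraries. It rose in senescent over primary libraries (1.40 ± 0.21, adjusted p = 0.000782) and lay above primary at the immortalized stage too (0.90 ± 0.21, adjusted p = 0.00771). The step between immortalized and senescent libraries did not pass (-0.50 ± 0.20, adjusted p = 0.0942), although the values did not overlap. DDX58 thus kept part of its higher level in a stage where IFIH1 was back in the primary range, and the difference between both genes was not tested.

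DHX58, the related helicase LGP2 that tunes both receptors, was at 5.11, 3.91 and 4.42 CPM in primary, 3.05, 2.99 and 3.96 CPM in senescent and 2.82, 2.4 and 3.29 CPM in immortalized libraries. It was lower in immortalized than in primary libraries (-0.66 ± 0.19, adjusted p = 0.021), a call that ended without immortalized library 1 (adjusted p = 0.0612) or 2 (adjusted p = 0.0834). The call also ended under total-count scaling (-0.34, adjusted p = 0.14). In senescent against primary libraries DHX58 passed without primary library 2 alone (-0.52, adjusted p = 0.0478). EIF2AK2, the kinase PKR that halts translation when it binds double-stranded RNA, averaged 31.1 ± 2.0 CPM in senescent and 13 ± 8.5 CPM in primary libraries (SD, n = 3 each). Its primary values of 4.97, 21.9 and 12.1 CPM were far apart, and its rise (1.25 ± 0.42, adjusted p = 0.0331) did not hold without primary library 3 (adjusted p = 0.094) or without senescent library 1 (adjusted p = 0.0806), 2 (adjusted p = 0.0766) or 3 (adjusted p = 0.063). Without primary library 2 the EIF2AK2 change was 1.85 (adjusted p = 0.00181). OAS2 had 0 counts in primary, 14 in senescent and 1 in immortalized libraries and was too low to test. Taking 3 counts in the whole group as the floor, senescent libraries exceeded primary ones at least 3.5-fold. In immortalized libraries it was lower than in senescent ones by a ratio of 12.3 (95% counting interval 1.87 to 520).

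Among the signalling genes the interferon regulatory factors went separate ways. IRF1, a factor that induces antiviral genes and slows growth, had 20.9, 18.2 and 20.4 CPM in primary, 96.2, 97.1 and 99.1 CPM in senescent and 41.5, 46 and 49.7 CPM in immortalized libraries. The replicates lay close together and the stages did not overlap. The rise was 4.91-fold (2.30 ± 0.11, adjusted p = 1.34e-06), the later fall 2.13-fold (-1.09 ± 0.10, adjusted p = 0.000121), and immortalized libraries stayed above primary ones (1.2 ± 0.11, adjusted p = 3.02e-05).

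IRF7, the master factor for the interferon alpha genes and itself induced by interferon, ran the other way. It had 75.2, 26.9 and 36.3 CPM in primary, 16, 15.1 and 17.1 CPM in senescent and 1.01, 0.91 and 0.982 CPM in immortalized libraries. Each stage was below the one before without overlap. IRF7 was lower in senescent than in primary libraries (-1.52 ± 0.33, adjusted p = 0.00518), 16.5-fold lower in immortalized than in senescent libraries (-4.05 ± 0.41, adjusted p = 0.000174) and 47.4-fold lower in immortalized than in primary libraries (-5.57 ± 0.42, adjusted p = 1.44e-05). Both falls kept their call without any single library, with log2 values of -1.80 to -0.98 for the first and -4.21 to -4 for the second over all settings tried.

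IRF3, the constantly expressed factor that the sensors activate first, averaged 58.9 ± 3.6 CPM in senescent and 101 ± 17 CPM in primary libraries (SD, n = 3 each; -0.77 ± 0.13, adjusted p = 0.0016). It stayed at 56.7 ± 3.7 CPM in immortalized libraries. IRF9, the DNA-binding part of the interferon-activated complex, was at 10.6, 10.1 and 12 CPM in immortalized libraries, against 26.2, 15.2 and 17.9 CPM in primary ones (-0.86 ± 0.20, adjusted p = 0.00748). Against senescent libraries its fall of 1.52-fold (adjusted p = 0.0476) was marginal. It did not hold without any one of the 6 libraries compared, with adjusted p from 0.0783 to 0.152, nor with a replicate block (adjusted p = 0.0687).

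Its partner STAT2 averaged 33.3 ± 4.0 CPM in primary, 32.5 ± 2.1 CPM in senescent and 32.1 ± 1.8 CPM in immortalized libraries (SD, n = 3 each) and did not pass in any of the 3 comparisons, with edgeR's adjusted p between 0.716 and 0.935. The adaptor MAVS averaged 18.4 ± 1.7 CPM in senescent and 11.1 ± 5.1 CPM in primary libraries and missed the threshold (0.73 ± 0.29, adjusted p = 0.0555). It passed without primary library 2 (1.15, adjusted p = 0.000854). TRIM25, a ubiquitin ligase that helps activate RIG-I, also missed it (0.13 ± 0.27, adjusted p = 0.696), passed without primary library 2 (0.49, adjusted p = 0.044) and turned sign without primary library 1 (-0.12, adjusted p = 0.612).

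Both receptor chains were higher at the senescent stage. IFNAR2, which binds interferon tightly, had 30.2, 32.2 and 30.5 CPM in primary, 43.5, 46.8 and 46.3 CPM in senescent and 43.8, 40.8 and 41.9 CPM in immortalized libraries. The rise was modest and even between replicates (0.55 ± 0.09, adjusted p = 0.00109) and was still present in immortalized libraries (0.44 ± 0.09, adjusted p = 0.00359). IFNAR1, the signalling partner chain, had 13.9, 55.6 and 30.8 CPM in primary, 78.9, 83.8 and 76 CPM in senescent and 50.8, 38.3 and 33.5 CPM in immortalized libraries. Its rise (1.25 ± 0.41, adjusted p = 0.0305) rested on widely spread primary values. The call ended without primary library 3 (adjusted p = 0.09) or senescent library 1 (adjusted p = 0.0683), 2 (adjusted p = 0.0751) or 3 (adjusted p = 0.0617).

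USP18, the protease that strips ISG15 from proteins and blocks IFNAR2 signalling, was the member called higher at each step. It had 5.65, 5.47 and 4.42 CPM in primary, 12, 11.2 and 11.8 CPM in senescent and 17.7, 18.6 and 15.1 CPM in immortalized libraries. The stages did not overlap. The first step was 2.25-fold (1.17 ± 0.14, adjusted p = 0.000242), and immortalized libraries were 3.31-fold above primary ones (1.73 ± 0.15, adjusted p = 2.31e-05). The step between immortalized and senescent libraries was smaller (0.55 ± 0.14, adjusted p = 0.0152). That call held without immortalized library 3 and was lost without any other single library of the 6, with adjusted p from 0.0504 to 0.07, and under total-count scaling (adjusted p = 0.0686).

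**Figure D2:**
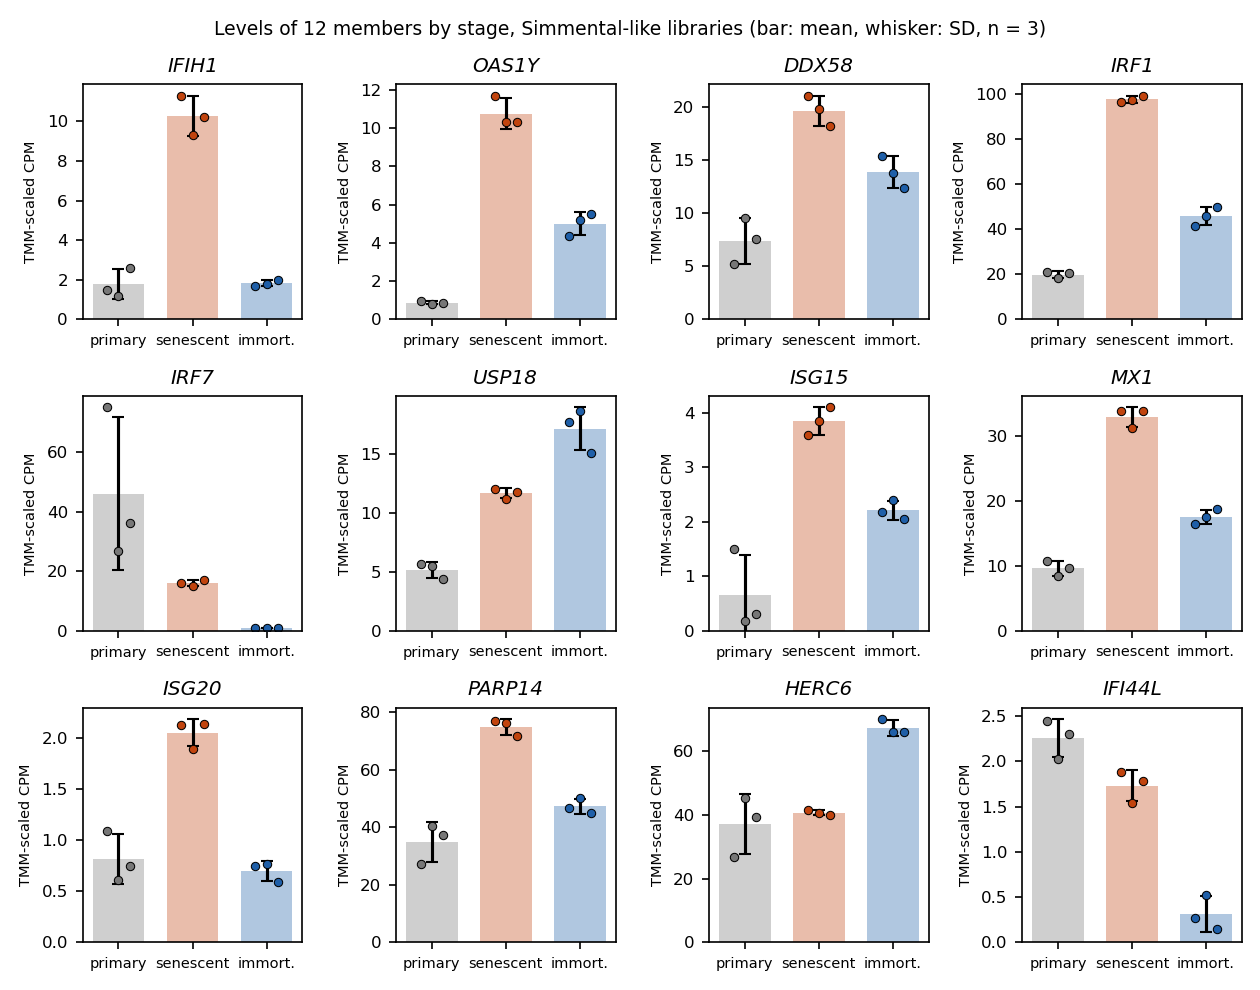
TMM-scaled CPM of 12 members in the 3 Simmental-like stages (points: libraries, bars: mean, whiskers: SD, n = 3 per stage). IFIH1, OAS1Y, IRF1, MX1, ISG20 and PARP14 peak at the senescent stage, USP18 is highest and IRF7 and IFI44L are lowest in immortalized libraries.

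The effectors split into genes that peaked at the senescent stage and genes that did not. MX1, a GTPase that traps viral nucleocapsids, had 10.8, 8.44 and 9.66 CPM in primary, 33.8, 31.2 and 33.8 CPM in senescent and 16.4, 17.5 and 18.7 CPM in immortalized libraries. It rose 3.43-fold (1.78 ± 0.13, adjusted p = 1.22e-05), was 1.88-fold lower in immortalized than in senescent libraries (-0.91 ± 0.12, adjusted p = 0.000727) and remained above primary (0.87 ± 0.13, adjusted p = 0.000551). Its neighbour on the RefSeq map, MX2, had 1 count in primary, 22 in senescent and 5 in immortalized libraries and was not tested. Its ratio of senescent to primary was 16.7, with a 95% counting interval of 2.7 to 690.

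ISG15, a ubiquitin-like modifier, had 1.5, 0.189 and 0.311 CPM in primary, 3.6, 3.85 and 4.1 CPM in senescent and 2.18, 2.4 and 2.06 CPM in immortalized libraries. Senescent values were the highest and even. The rise was 2.62 ± 0.53, and 3.95 without primary library 1, the highest of the primary values. Primary libraries 2 and 3 were under the 0.506 CPM that the filter asks for. ISG15 thus passed the filter only through the later stages, so no p is given against primary. Immortalized libraries were also above primary ones (1.82 ± 0.55), or 3.14 without primary library 1. This call was lost without primary library 3 or without immortalized library 1, 2 or 3. HERC6, known in mouse as the ligase that attaches ISG15, had another course with 26.8, 45.5 and 39.3 CPM in primary, 41.5, 40.6 and 40 CPM in senescent and 70.3, 66 and 66 CPM in immortalized libraries. It was higher in immortalized than in senescent libraries (0.73 ± 0.17, adjusted p = 0.0128; adjusted p = 0.0507 without senescent library 3, adjusted p = 0.101 under total-count scaling) and than in primary ones (0.86 ± 0.17, adjusted p = 0.00379).

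ISG20, an exonuclease that degrades viral RNA, had 1.09, 0.613 and 0.748 CPM in primary, 2.13, 1.9 and 2.14 CPM in senescent and 0.744, 0.767 and 0.589 CPM in immortalized libraries. Like IFIH1 it was high at the senescent stage (1.36 ± 0.23, adjusted p = 0.00148) and overlapped the primary values afterwards, with 1 immortalized library below them all (-1.55 ± 0.23 against senescent, adjusted p = 0.00124). SAMD9, a factor that restricts poxviruses, had 4.22, 17.1 and 9.59 CPM in primary, 34.8, 35.7 and 32.1 CPM in senescent and 24.1, 19 and 17.2 CPM in immortalized libraries, with a rise of 1.72 ± 0.41 (adjusted p = 0.00742) between senescent and primary.

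PARP9, DTX3L and PARP14 lie side by side on the RefSeq map, and PARP9 and DTX3L form a complex that modifies ubiquitin and histones. All 3 rose at the senescent stage, by 0.65 ± 0.16 for PARP9 (adjusted p = 0.00739), 1.36 ± 0.37 for DTX3L (adjusted p = 0.0143) and 1.10 ± 0.15 for PARP14 (adjusted p = 0.000433). PARP14, which makes mono-ADP-ribose marks, had 27.2, 40.5 and 37.5 CPM in primary, 76.9, 76.4 and 71.8 CPM in senescent and 46.6, 50.2 and 45.1 CPM in immortalized libraries. It was lower again in immortalized than in senescent libraries (-0.67 ± 0.15, adjusted p = 0.00884). Its remaining excess over primary libraries (0.43 ± 0.15, adjusted p = 0.0386) was lost with a replicate block (adjusted p = 0.0533) and without primary library 3 (adjusted p = 0.0598) or immortalized library 1 (adjusted p = 0.0866), 2 (adjusted p = 0.121) or 3 (adjusted p = 0.0754).

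ADAR, which edits double-stranded RNA and keeps it from the sensors, averaged 68 ± 0.9 CPM in senescent and 35.6 ± 17 CPM in primary libraries (SD, n = 3 each; 0.93 ± 0.30, adjusted p = 0.0288). The call was lost without primary library 3 (adjusted p = 0.095) or senescent library 1 (adjusted p = 0.0664), 2 (adjusted p = 0.0704) or 3 (adjusted p = 0.0649). RNF213, a large ubiquitin ligase, averaged 39.7 ± 3.5 CPM in senescent and 18 ± 9.6 CPM in primary libraries (1.13 ± 0.36, adjusted p = 0.0263). That call held without senescent library 3 and was lost without primary library 3 (adjusted p = 0.0645) or senescent library 1 (adjusted p = 0.0701) or 2 (adjusted p = 0.0673). ADAR, RNF213, EIF2AK2, IFNAR1, SAMD9 and DTX3L had in common that primary library 1 was the lowest and primary library 2 the highest of the 3 primary values. The same order held for DDX58, MAVS, STAT2, IFNAR2, TRIM25, PARP9, PARP14, HERC6, IFIT1, IFIT3 and IFIT5. The reverse order, with primary library 1 highest and 2 lowest, held for OAS1Y, DHX58, IRF1, IRF3, IRF7, IRF9 and ISG15. ISG20, MX1, IFI6, IFI44L, IFI35 and XAF1 had this reverse order too. Both orders held members called higher and members called lower at the senescent stage. The part of this spread in the calls was not tested. Primary library 1 lay more than 1 log2 unit from the other primary libraries for 32.4% of the tested members and 20.2% of all tested genes.

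RSAD2, the radical SAM enzyme viperin, had 0 counts in the primary libraries, 34 in the senescent and 19 in the immortalized ones. It passed the filter only through the senescent stage, as all its immortalized libraries were under the 0.506 CPM that the filter asks for. On the same floor, senescent libraries exceeded primary ones at least 8.6-fold and immortalized libraries exceeded them at least 5.5-fold. These bounds cover counting error only. IFI44 had 4 counts in primary, 30 in senescent and 25 in immortalized libraries and was not tested.

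The effectors that did not peak at the senescent stage came mainly from the IFI and IFIT families. IFI35, a partner of NMI in cytosolic complexes, had 74.9, 25.3 and 33.1 CPM in primary, 13.7, 13.3 and 14.4 CPM in senescent and 13.4, 15.9 and 16.7 CPM in immortalized libraries. It was lower than primary at both later stages, by -1.68 ± 0.36 in senescent libraries (adjusted p = 0.0047) and by -1.53 ± 0.36 in immortalized ones (adjusted p = 0.00775). Without primary library 1, the highest, these values were -1.09 (adjusted p = 0.000107) and -0.94 (adjusted p = 0.000245).

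The IFIT genes encode tetratricopeptide proteins that bind foreign RNA, and IFIT2, IFIT3 and IFIT5 are close neighbours on the RefSeq map. They were not alike. IFIT3 averaged 4.46 ± 0.46 CPM in senescent and 7.26 ± 0.83 CPM in primary libraries (-0.71 ± 0.15, adjusted p = 0.00473; adjusted p = 0.284 under total-count scaling). IFIT5 averaged 31.8 ± 0.62 CPM in senescent and 46.8 ± 11 CPM in primary libraries (-0.56 ± 0.17, adjusted p = 0.0195), a call lost without primary library 3 (adjusted p = 0.0668) or senescent library 1 (adjusted p = 0.056), 2 (adjusted p = 0.0568) or 3 (adjusted p = 0.0618). Under total-count scaling the call was lost too (-0.12, adjusted p = 0.665). IFIT1 had 13.4, 65.8 and 51.3 CPM in primary, 25.8, 29.2 and 25.1 CPM in senescent and 25.9, 27.8 and 24.6 CPM in immortalized libraries. Primary library 1 lay below all later libraries and the other primary libraries above them. IFIT1 did not pass with all libraries (-0.71 ± 0.45, adjusted p = 0.208), and without primary library 1 it was lower in senescent (-1.14, adjusted p = 4.2e-05) and in immortalized libraries (-1.19, adjusted p = 3.15e-05). IFIT2 had 15 counts in primary, 44 in senescent and 1 in immortalized libraries. The ratio by which immortalized lay below senescent libraries was 38.6, with a counting interval of 6.58 to 1560. It was tested only through the senescent stage, so no p is given.

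IFI44L, a GTPase-like protein that dampens interferon responses in human cells, had 2.45, 2.03 and 2.3 CPM in primary, 1.88, 1.54 and 1.78 CPM in senescent and 0.266, 0.527 and 0.147 CPM in immortalized libraries. The fall came at the last step: -2.44 ± 0.34 in immortalized against senescent libraries, or -3.04 without immortalized library 2, and -2.81 ± 0.34 against primary ones, or -3.42 without that library. Its immortalized mean of 0.313 CPM is under the level the filter asks for, so it was tested through the stages where it was high. IFI6, a mitochondrial and ER protein that protects from cell death, and XAF1, a binder of the apoptosis inhibitor XIAP, did not pass in any of the 3 comparisons. Their log2 values ran between -0.74 and 0.22, and without primary library 2 IFI6 passed against primary in senescent (-1.09, adjusted p = 0.00951) and immortalized libraries (-0.87, adjusted p = 0.0276).

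The immortalized stage was then set against the senescent one. Here 10 members fell, 2 rose and 22 did not pass. This is 29.4% lower and 5.88% higher among the 34 tested, while 16.1% of all genes were lower and 16.4% higher (32.4% in either direction). The stages did not overlap for 18 members that lay lower and 3 that lay higher, and for 70.9% of all genes. Without RSAD2, IFIT2 and IFI44L, whose immortalized means lie under the level the filter asks for, 8 of 31 fell and 2 rose. The members that fell were IRF7, IFIT2, IFIH1, IFI44L, ISG20, OAS1Y, IRF1, MX1, PARP14 and IRF9, and the members that rose were HERC6 and USP18. The median change was -0.41 (0.00 over all genes). With a fit of these 6 libraries alone, which leaves the primary libraries out of the estimate of the spread, 19 members were lower, and over all genes 4388 were lower and 4212 higher, where the fit of all 9 libraries had 2103 and 2146. Among those added were ADAR (-0.71, adjusted p = 0.000304), SAMD9 (-0.78, adjusted p = 0.000233), IFNAR1 (-0.98, adjusted p = 0.000254) and DDX58 (-0.52, adjusted p = 0.00105). The number of members higher was 0 without senescent library 3, 2 without immortalized library 3 and 1 without each other library of the 6. Over all genes 1406 to 1675 were higher in these fits.

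Immortalized libraries were also set against primary ones. In this comparison 10 members rose and 8 fell. The shares of 29.4% higher and 23.5% lower were close to the 24.9% and 25.5% of all genes (50.4% in either direction). The stages did not overlap for 13 members that lay higher and 8 that lay lower, and for 56.3% of all genes. The 10 that rose were OAS1Y, DDX58, IRF1, IFNAR2, USP18, ISG15, MX1, RSAD2, HERC6 and PARP14, and the 8 that fell were DHX58, IRF3, IRF7, IRF9, IFI35, IFI44L, IFIT2 and IFIT3. Without RSAD2, IFIT2 and IFI44L, 9 of 31 rose and 6 fell, with ISG15 still among the 9. Of the fibroblast markers 7 of 9 were lower here, and their part was not tested. Without primary library 2, 19 members rose and 9 fell, and over all genes 4162 were higher and 4120 lower, where all libraries gave 3264 and 3343: EIF2AK2, MAVS, IFNAR1, PARP9, DTX3L, SAMD9, ADAR, RNF213 and IFI6 then passed, with log2 values from -0.87 for IFI6 to 1.54 for EIF2AK2. Without primary library 1 the value turned sign for IFNAR1 (-0.11), ADAR (-0.05) and IFI6 (0.07). IFIT1, IFIT5 (-0.31, adjusted p = 0.00793) and RNF213 (0.50, adjusted p = 0.0322) then passed. Without immortalized library 2 the number of members that fell was 5, with 2559 of all genes lower. IFIT3 fell by 0.54 (adjusted p = 0.0177), a call lost without immortalized library 1 (adjusted p = 0.0568) or 2 (adjusted p = 0.0767). Total-count scaling also ended this call (-0.25, adjusted p = 0.307). The counts of IFIT2 put immortalized libraries 17.3-fold below primary ones (counting interval 2.67 to 730).

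**Figure D3:**
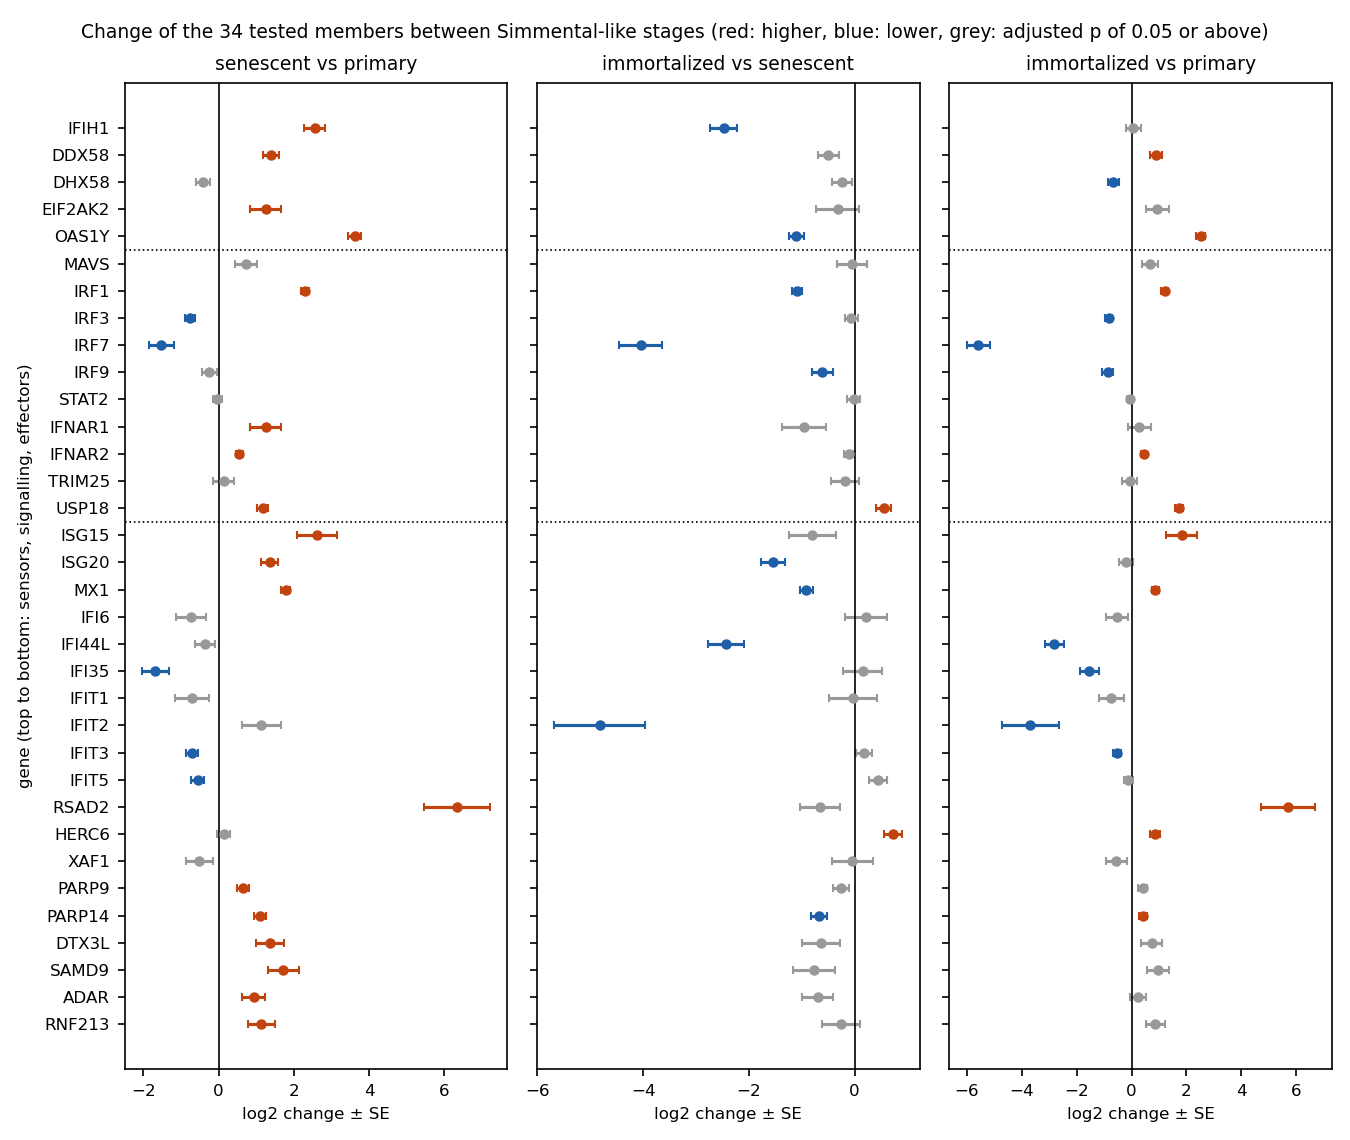
Log2 change ± SE of the 34 tested members in the 3 Simmental-like comparisons, with members called higher in red, lower in blue and not called in grey. The fitted values of RSAD2 and IFIT2 rest on groups with 0 or 1 count and are no measure of size. Sensors lie right of 0 in senescent against primary libraries except DHX58 (-0.42), and all 5 tested sensors lie left of 0 in immortalized against senescent libraries.

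Summed over the 37 members, the level was 628, 751 and 662 CPM in the primary, 913, 915 and 900 CPM in the senescent and 731, 700 and 670 CPM in the immortalized Simmental-like libraries. The sum for the 6 sensors was 17.7, 37.3 and 27.6 CPM in primary, 79.9, 74.5 and 71.8 CPM in senescent and 54.1, 46.9 and 44.6 CPM in immortalized libraries. The summed sensors did not overlap between stages, although single ones did, such as IFIH1 and EIF2AK2 between immortalized and primary libraries and DHX58 between senescent and primary ones. For all members together the immortalized range of 670 to 731 lay within the primary range of 628 to 751. This depended on the TMM scaling. By column total the sums were 456, 687 and 578 CPM in primary and 756, 728 and 691 CPM in immortalized libraries, so there each immortalized library lay above the primary ones.

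Other genes of the pathway gave the setting. Of the interferon genes looked up, IFNB1, which encodes interferon beta, was the one with more than 1 count in the Simmental-like libraries. It had 1 count in primary libraries, 19, 25 and 16 counts in the senescent and 16, 18 and 18 counts in the immortalized ones. The senescent to primary ratio was 45.6 (95% counting interval 7.87 to 1830) and the immortalized to primary ratio 45 (7.73 to 1810). IFNB1 passed the filter only through the later stages, so no p is given against primary. Immortalized and senescent libraries did not differ past the threshold (-0.02 ± 0.31, adjusted p = 0.965). IFNG, IFNK and IFNW1 had 0 counts in all 9 libraries, which allows up to 0.129 to 0.165 CPM per library, and IFNE had 1 count.

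Of 71 further pathway genes with a row, 55 were tested. In senescent against primary libraries 17 were higher and 18 lower (30.9% and 32.7%), close to the shares of all genes. In immortalized against senescent libraries 12 were higher and 10 lower (21.8% and 18.2%, against 16.4% and 16.1% of all genes). In immortalized against primary libraries 15 were higher and 16 lower (27.3% and 29.1%, against 24.9% and 25.5%). CCL5, OAS1Z, PARP12, ENPP1, GBP5, ZBP1, CXCL9 and CXCL10 were under the level the filter asks for in at least 1 stage, so their values are given with no p. ZBP1, a sensor of Z-form nucleic acid, had 1 count in primary, 89 in senescent and 70 in immortalized libraries, with ratios to primary of 67.6 (11.8 to 2700) and 60.6 (10.5 to 2430). NLRC5, the activator of MHC class I genes, averaged 11.8 CPM in senescent and 1.8 CPM in primary libraries (2.68 ± 0.20, adjusted p = 1.4e-05), and 5.39 CPM in immortalized ones.

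CCL5, an interferon-induced chemokine, averaged 3.5 CPM in senescent and 0.152 CPM in primary libraries, and 0.317 CPM in immortalized ones. The chemokine genes CXCL9 and CXCL10 were highest in primary libraries. CXCL10 had 152 counts in primary, 3 in senescent and 0 in immortalized libraries, so it was lower in senescent libraries by a ratio of 66.7 (22.4 to 327) and at least 58.6-fold lower in immortalized ones. CXCL9 had 75 counts in primary libraries and 2 at each later stage, ratios of 49.4 (13.2 to 415) and 43.4 (11.6 to 365). OAS1Z, a close relative of OAS1Y, averaged 1.11 CPM in senescent and 0.115 CPM in primary libraries, and 0.169 CPM in immortalized ones.

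At the last step PARP12, an interferon-induced ADP-ribosyltransferase, averaged 0.362 CPM in immortalized and 20.6 CPM in senescent libraries. ENPP1, which degrades the messenger made by the DNA sensor cGAS, averaged 0.2 CPM in immortalized and 2.63 CPM in senescent libraries, and GBP5, a guanylate-binding protein, 0.155 CPM in immortalized and 1.39 CPM in senescent ones. UBE2L6, the enzyme that carries ISG15 to its ligases, rose to 4.35 CPM in immortalized libraries, against 1.51 CPM in senescent ones (1.52 ± 0.25, adjusted p = 0.00186). SOCS1, a brake on interferon signalling, averaged 0.931 CPM in immortalized and 6.15 CPM in primary libraries (-2.71 ± 0.33, adjusted p = 0.000214).

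The DNA sensing pair was named outside the rule, after its values were seen. TMEM173, which encodes STING, averaged 7.92 CPM in senescent and 4.7 CPM in primary libraries (0.75 ± 0.16, adjusted p = 0.00375) and was higher still in immortalized ones with 12.1 CPM (0.61 ± 0.15 against senescent, adjusted p = 0.0139). MB21D1, which encodes cGAS, had 2.32, 6.08 and 3.99 CPM in primary, 5.02, 5.08 and 5.08 CPM in senescent and 6.11, 6.13 and 5.65 CPM in immortalized libraries and did not pass in any of the 3 comparisons.

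Blood cells express many of these genes strongly, so their markers were set beside them. The 12 immune cell markers together took 0.00155% to 0.00203% of the counts in primary, 0.00113% to 0.00134% in senescent and 0.000368% to 0.000784% in immortalized Simmental-like libraries. TYROBP had 0 counts in all 9 and PTPRC, the common white cell antigen, at most 0.22 CPM. Most of the primary sum was CD14, with 285 to 311 counts a library. Without CD14 the other 11 took 0.000201% to 0.000548% in primary, 0.000623% to 0.000647% in senescent and 0.000357% to 0.000764% in immortalized libraries, so the senescent values then lay above the primary ones. CSF1R averaged 1.11 CPM in senescent and 0.214 CPM in primary libraries, and CD74 averaged 0.378 CPM in senescent and 0.0384 CPM in primary libraries and was too low to test. Endothelial markers were looked at in the same way. The 6 took 0.00113% to 0.00134% in senescent and 0.000299% to 0.00038% in primary libraries. Of the 4 tested, 3 were higher, where 28.3% of all genes were. In immortalized libraries the 6 took 0.000461% to 0.000506%. Here 3 of the 4 were lower than in senescent ones, where 16.1% of all genes were. Both counts include KDR, which averaged 0 CPM in primary, 1.24 CPM in senescent and 0.298 CPM in immortalized libraries. KDR was tested only through the senescent stage, so without it PECAM1 and VWF remain in each count. The part of immune and endothelial markers in the members' changes was not tested.

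The libraries labelled Holstein-like differed so much within a stage that they are given one by one, without a test. In the 3 primary ones, 7 skeletal muscle genes took 16.8%, 16.9% and 16.9% of the counts and 9 fibroblast genes 0.0725% to 0.0734%. The 3 were nearly alike, with a chi-square per gene of 1.21 to 1.24. At their depth 3 counts are 2.05 to 2.11 CPM, and 22, 23 and 19 of the 37 members had 3 counts or fewer. The members summed to 125, 110 and 113 CPM. MAVS, at 19.2, 15 and 18.3 CPM, and IFIT5, at 15.8, 14.3 and 11.9 CPM, were well above that level, whereas MX1 stood at 2.06, 2.73 and 2.11 CPM.

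The later Holstein-like libraries all had counts for every member. Senescent library 1 carried heart (1.71%) and muscle (1.28%) genes, senescent libraries 2 and 3 and immortalized library 1 liver genes (13.5%, 13% and 12.9%), immortalized library 2 kidney genes (0.782%) and immortalized library 3 fibroblast genes (6.65%). The 95% Wilson intervals of these shares lie within 0.67% of each value and cover counting error only. The summed level of the members was 1790, 1480 and 4880 CPM in senescent libraries 1, 2 and 3 and 2570, 887 and 1780 CPM in immortalized libraries 1, 2 and 3. Simmental-like libraries ranged from 456 to 1060 CPM on the same scale.

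Senescent library 3 was the highest of the 6 for 26 of 37 members, and immortalized library 2 the lowest for 20. The same count was not made over all genes, so it is not known if the members stood out in this. Senescent library 3 shared its label and its liver genes with senescent library 2, yet 15 of the 21 effectors and 2 of the 6 sensors were at least 3-fold higher in library 3. These libraries also differed over all genes, with a chi-square of 210 per gene over 12497 genes and 795 per gene for the members. How many of all genes were 3-fold higher was not counted, so the member counts have no background to be set against. Examples in libraries 3 and 2 are 734 and 90.3 CPM for MX1, 613 and 41.1 CPM for IFI6, 375 and 41.8 CPM for OAS1Y and 247 and 39.3 CPM for ISG15. The least ratio among effectors was 1.43, for IFIT5. None of the 10 signalling genes was 3-fold higher (ratios of 0.946 to 1.86), with 303 and 190 CPM for STAT2, 41 and 39 CPM for IRF3 and 54 and 57.1 CPM for IFNAR2. The immune cell markers took 0.0863% (0.0848% to 0.0879%) of the counts in senescent library 3 and 0.0485% (0.0473% to 0.0497%) in senescent library 2, and their part in the difference was not tested.

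The other libraries differed in which role was high. Senescent library 1, the one with heart genes, had 260 CPM of IFI6, 226 CPM of MX1, 112 CPM of OAS1Y and 91.2 CPM of RSAD2, but the lowest levels of the 6 for STAT2 (15.1 CPM), IFNAR1 (20.5 CPM), IFNAR2 (17.2 CPM) and TRIM25 (14.2 CPM). Immortalized library 3, in which fibroblast genes led, had the highest IRF1 (107 CPM), IFNAR2 (110 CPM), IRF3 (70 CPM) and MX2 (151 CPM). It also held the highest share of immune cell markers, 0.493% (0.489% to 0.496%), with 150 CPM of PTPRC, and endothelial markers at 0.551% (0.547% to 0.554%). Its IRF7, at 15.8 CPM, was above the 0.91 to 1.01 CPM of the Simmental-like immortalized libraries, although these values are on different scalings. Immortalized library 2, the one with kidney genes, had 5.83 CPM of ISG15 and 4.64 CPM of RSAD2 but the highest MAVS of the 6, at 39.3 CPM.

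**Figure D4:**
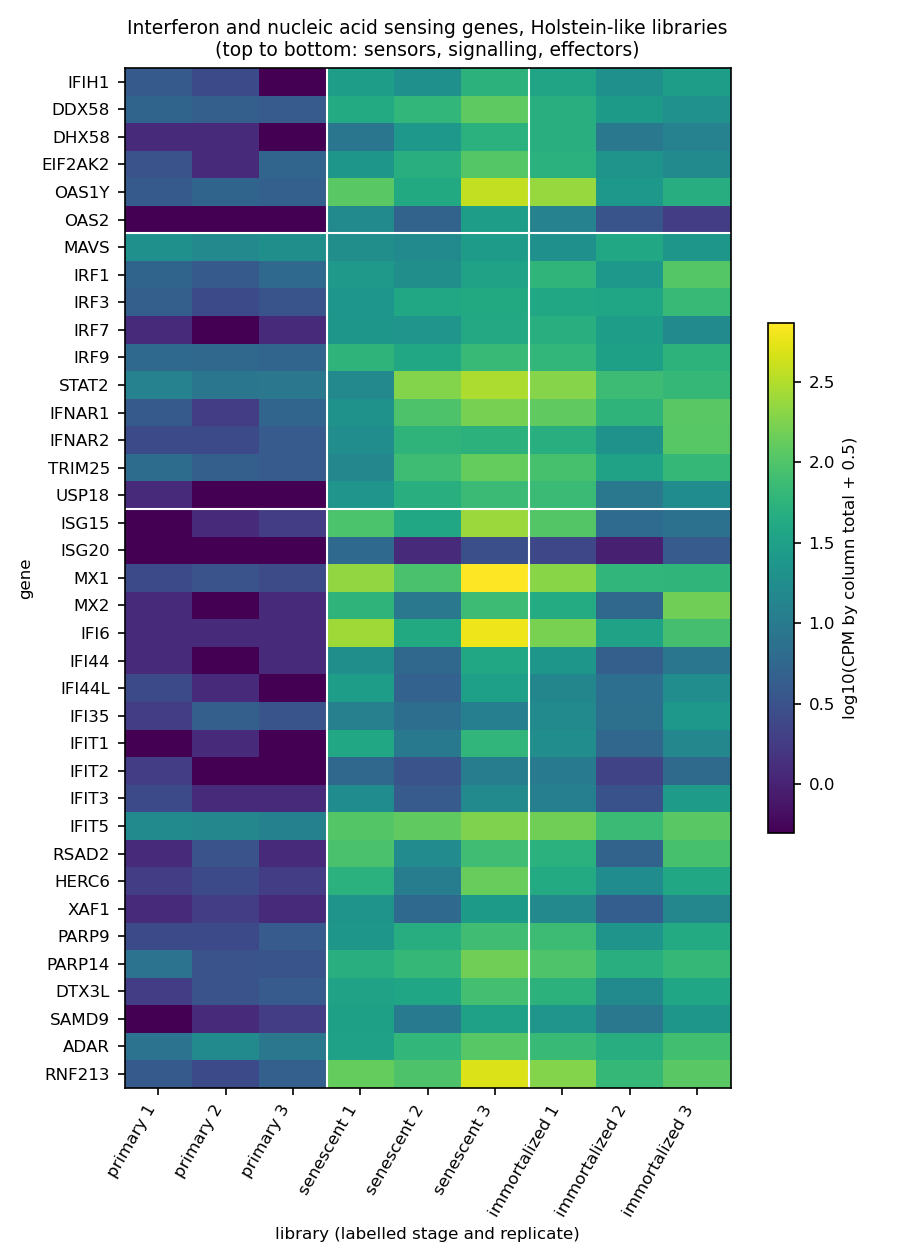
Heat map of log10(CPM by column total + 0.5) for the 37 members (rows, by role) in the 9 libraries labelled Holstein-like (columns). The 3 primary columns are dark for nearly all members, senescent library 3 is the brightest, and libraries of the same label differ from each other.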

How the data were processed

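RNA was extracted with RNeasy kits and sequenced as single reads from NEBNext Ultra II libraries, per the labels' protocols. The authors deposited expected counts per Ensembl gene from salmon, as the file name says. The build was UMD3.1, per the submitters' processing notes. Which aligner, strand setting, annotation and salmon version were used is not given in the sources used here. Values that were not whole (1.01% to 7.18% per library) were rounded like the rest. Without a known strand setting, reads of overlapping genes cannot be told apart.

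The 9 Simmental-like libraries were fitted together in R 4.3.3 with edgeR 4.0.16 (filterByExpr by stage, TMM scaling, robust quasi-likelihood fit and F-test, Benjamini-Hochberg adjustment over 13099 genes). SE is the size of the change over the square root of F. Members and lists were chosen with earlier results of these data known. Per-library values are given for members called with a log2 change of at least 1 and 1 CPM or more on average in the higher stage, at most 10 per comparison, and where a role needed it. Up to 6 pathway genes per comparison were named by size. Against a stage with 0 counts a fold is a lower bound, taking 3 counts in the whole group, and with 1 to 3 counts a ratio is given with its exact 95% counting interval. Older symbols and gene order came from a RefSeq table (ARS-UCD2.0). The steps were tested on simulated data. Alternatives were RLE, upper quartile and total-count scaling, DESeq2 1.42.0, no filter, a minimum of 5 CPM in 3 libraries, limma-voom (limma 3.58.1), a fit of 6 libraries, a replicate block, summing senescent libraries 1 and 2, and leaving out each library.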

Additional observations from a re-analysis of the deposited data

How the results depend on the processing

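Of 53 member calls over the 3 comparisons, 39 held under every alternative that tested the gene and 14 were lost under at least 1. None of the 53 changed sign. The 39 include calls of RSAD2, IFI44L, IFIT2 and ISG15, which were tested only through stages where they were high. That these calls held is therefore no support for them. Scaling by total counts moved the all-gene median by 0.47 in senescent against primary libraries, by -0.16 in immortalized against senescent and by 0.30 in immortalized against primary ones, while the members' median less that of all genes stayed at 0.78, -0.41 and 0.21 (0.82, -0.41 and 0.26 with TMM). There, 3 members were lower in senescent against primary libraries and 5955 and 1840 of all genes higher and lower, 0 members were higher in immortalized against senescent libraries, and 2098 genes were lower in immortalized against primary ones. In the fit of 6 libraries, 19 members were lower in immortalized against senescent libraries, with 4212 genes higher and 4388 lower. In senescent against primary libraries this fit had 14 members higher and 4 lower, with 2982 and 2894 of all genes. EIF2AK2, IFNAR1, ADAR, RNF213 and IFIT5 lost their calls in it, with edgeR's adjusted p from 0.0636 to 0.0762. In immortalized against primary libraries it had 7 members higher and 5 lower, with 2344 and 2355 of all genes. The stricter filter also left 5 lower members there, as it tests fewer members (27). With senescent libraries 1 and 2 summed, 1 member was higher in immortalized against senescent libraries. The cause of the other shifts was not tested. Leaving out members whose mean in a compared stage is under the filter, chosen after seeing the data, gave 17 higher and 5 lower, 2 and 8, and 9 and 6.

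Leaving out 1 library gave 14 to 21 members higher and 4 to 7 lower in senescent against primary libraries (2891 to 4557 and 2945 to 4524 of all genes), 0 to 2 and 9 to 9 in immortalized against senescent (1406 to 1675 and 1432 to 1748), and 8 to 19 and 5 to 10 in immortalized against primary (2597 to 4162 and 2559 to 4169). The most members were called without primary library 2. A stage left with 2 libraries shares the spread of the others.

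Replicate numbers did not pair the libraries: deviations of same-numbered libraries correlated from -0.5 to 0.18. Deviations of different-numbered libraries of different stages correlated from -0.53 to 0.55, and a replicate block does not take such shared deviations out. With a replicate block 18 members were higher and 5 lower, 2 and 9, and 9 and 8 in the 3 comparisons, and it changed no call other than those of IRF9 and PARP14.

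In 34 cases a member's value changed sign, none of them called with or without the change. Under total-count scaling these were, in senescent against primary libraries, DHX58 (0.06), IFI44L (0.10), IRF9 (0.25) and STAT2 (0.42; 0.04 under upper quartile scaling), in immortalized against senescent IFI35 (-0.01), and in immortalized against primary IFIT5 (0.17), ISG20 (0.12), STAT2 (0.24) and TRIM25 (0.21). Without a filter STAT2 stood at 0 in immortalized against senescent libraries. Leaving out 1 library spread the values across 0 for the rest. In senescent against primary libraries the ranges were -0.13 to 0.05 for STAT2, -0.12 to 0.49 for TRIM25 and -0.07 to 0.30 for HERC6. In immortalized against senescent libraries they were -0.12 to 0.02 for MAVS, -0.05 to 0.04 for STAT2, -0.08 to 0.04 for IFIT1 and -0.32 to 0.09 for XAF1. In immortalized against primary libraries they were -0.18 to 0.46 for IFIH1, -0.15 to 0.04 for STAT2, -0.11 to 0.87 for IFNAR1, -0.31 to 0.31 for TRIM25, -0.38 to 0.04 for ISG20, -0.87 to 0.07 for IFI6 and -0.05 to 0.70 for ADAR. Depth limits OAS2, MX2 and IFI44, and all members in the Holstein-like primary libraries.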
